A study of Danio rerio with 9 samples.

Results

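The axon guidance genes measured here were the semaphorins, plexins, neuropilins, Slits, Robos and netrins whose symbols could be matched on a zebrafish oligonucleotide array. Members were chosen by symbol (classes 3 to 7 of the semaphorins, plexins, neuropilins, Slits, Robos, netrins, their receptors Dcc and Unc5, and the CRMP proteins). The choice, made with earlier results of these data known, gave 20 of the 5355 named genes. Each of the 20 was represented by 1 probe. They comprised 5 class 3 semaphorins, 3 other semaphorins, 1 neuropilin, 3 plexins, 2 Slits, 4 Robos and 2 netrins. No probe with 1 symbol matched Dcc, Unc5 or the CRMP proteins, and 1 probe with the symbols of both plxnb1a and plxnb1b was not used.

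The tissue was embryonic zebrafish hindbrain. All embryos carried an islet-1 GFP transgene, which labels cranial motor neurons among other cells, and were dissected 19 to 20 hours post fertilization. Each of the 9 samples pooled thick transverse sections around 1 rhombomere, a segment of the hindbrain, from 8 to 10 embryos. There were 3 groups of 3 arrays. Normal r4 was rhombomere 4 of embryos labelled normal, and normal r2 was rhombomere 2 of embryos labelled normal. Hoxb1a-deficient r4 was rhombomere 4 of embryos injected with a Hoxb1a morpholino, an antisense oligomer. The r4 tissues were taken in 3 experiments, and r2 once in experiment 2 and in 2 samples (3a and 3b) in experiment 3. The comparisons asked which transcripts depend on Hoxb1a. Whether any embryo received a control injection is not stated in the sources used.

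Axon guidance works through secreted or membrane-bound cues and receptors on the growing axon. Slits from the midline repel axons that carry Robo receptors, netrins from the floor plate attract or repel through Dcc and Unc5, and class 3 semaphorins act through neuropilins joined to plexins. Rhombomere 4 is the origin of facial branchiomotor neurons, which migrate backwards, and holds the Mauthner cells, whose axons cross the midline. Both tissues contain other cells, and in bulk RNA fewer cells of a type and less RNA per cell cannot be told apart.

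Values are given as multiples of the array median, which lay at about 1 on every array. Of the 20 probes, 6 lay above the median on all 9 arrays, namely sema3e, sema4c and the 4 Robos. Another 6 lay above it on some arrays (sema3h, sema4e, sema5a, nrp2b, plxna4 and ntn1a). The remaining 8, which were sema3aa, sema3ab, sema3d, plxna3, plxnc1, slit2, slit3 and ntn1b, lay below the median on all 9 arrays, between 0.406 and 0.902. Background was not separated from signal at such values, so that a difference in these 8 genes may not be visible here.

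Tissues were compared within experiments with limma, a linear model fitted to log2 values of all 16227 probes with the experiment as a block. Experiment 1 held no r2 array, but its r4 arrays entered the same fit. Estimates for r2 therefore also drew on experiment 1, and can lie outside the differences of experiments 2 and 3. Calls had a Benjamini-Hochberg adjusted p under 0.05 over all probes. Fold changes and differences given with an SE are on the log2 scale. As a check of the labels, hoxb1a ranged from 1.88 to 3.02 in normal r4, from 1.51 to 3.17 in Hoxb1a-deficient r4 and from 0.567 to 0.774 in r2. In this fit it was lower in r2 than in r4 (log2 fold change -1.60 ± 0.16, SE, n = 3 arrays per group, limma adjusted p = 0.00137). Deficient and normal r4 were not separated for hoxb1a (-0.30 ± 0.15, adjusted p = 0.887), and a morpholino can leave its target transcript in place. Hoxb1a protein was not measured in these data.

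Experiment 1 stood apart. Its 2 arrays had upper quartiles of 6.56 and 5.88, against 3.40 to 4.43 on the other 7, and lay above every other array for 25.5% of all probes and below every other array for 38.0%. Among the 20 genes they were the highest for 5 and the lowest for 5. After quantile normalization these counts were 6 and 0, and the shares of all probes 14.5% and 12.5%. The largest such gap was in robo2, the receptor gene mutated in the zebrafish line astray, whose retinal axons stray. It measured 4.30 and 4.97 in normal and Hoxb1a-deficient r4 of experiment 1, and 1.25 to 1.57 on the other 7 arrays. The r4 values of experiment 1 exceeded those of experiments 2 and 3 by 1.65 on the log2 scale for robo2 and by 1.40 for sema4e, and by 1.002 and 0.98 after quantile normalization. Within experiments robo2 differed little between tissues, with log2 fold changes of 0.03 ± 0.12 in Hoxb1a-deficient r4 and -0.03 ± 0.13 in r2, both against normal r4.

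**Figure D1:**
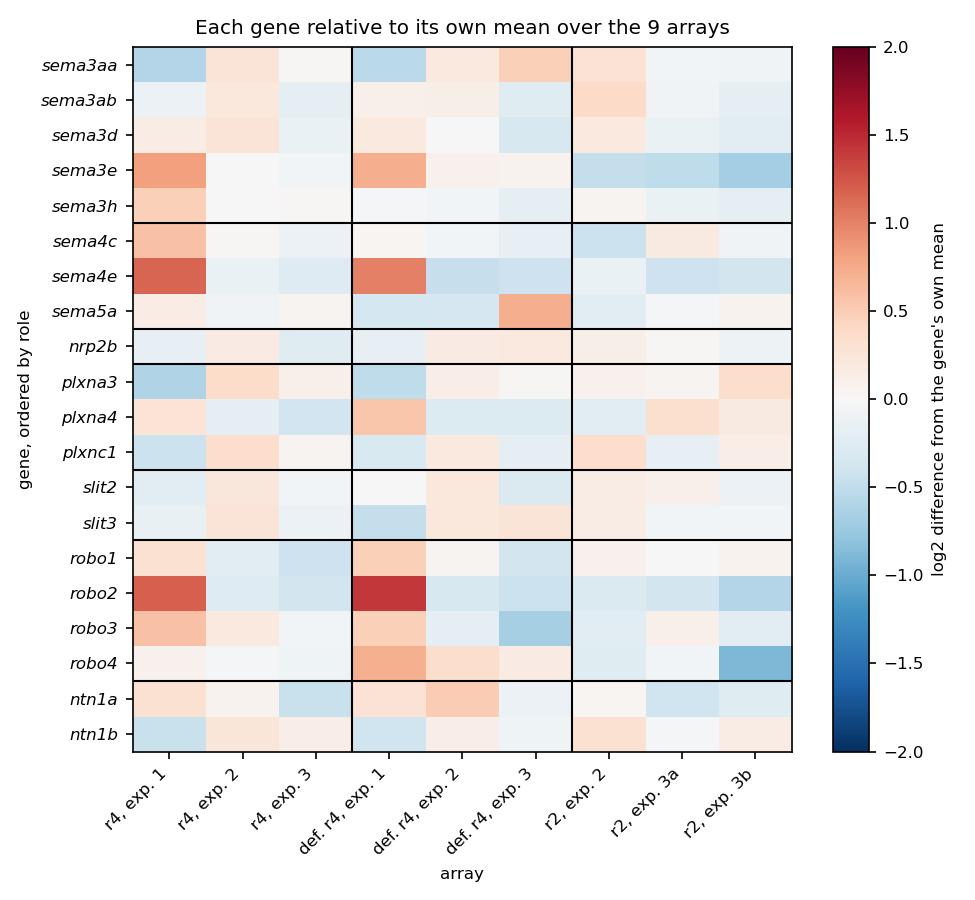
Each row is 1 of the 20 genes and each column 1 of the 9 arrays. Colour gives the log2 difference from the gene's own mean over the arrays, from -0.90 for robo4 to 1.41 for robo2, so that rows cannot be compared in level. The 2 arrays of experiment 1 are red together for robo2, sema4e and sema3e and blue together for sema3aa and plxna3, and the 3 r2 arrays are blue for sema3e.

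In Hoxb1a-deficient against normal r4, none of the 20 axon guidance genes passed the test. Over all probes 0.0123% were called, and before adjustment 0 genes and 5.74% of all probes had a p under 0.05 (0 genes and 0.505% of probes without the block). The 20 log2 fold changes ran from -0.37 to 0.42, 10 above and 10 below 0, with a median of -0.01 beside -0.01 over all probes. The unadjusted 95% intervals of all 20 lay within a change of 1 on the log2 scale in either direction, and those of 17 did without the block. These intervals hold on the scale of the deposited values, where a probe near background shows less change than its transcript.

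The receptors robo4, robo3 and robo1 had the largest differences among genes above the median on all 9 arrays, with sema4c. robo4, a Roundabout receptor known from blood vessels and in zebrafish also from neural tissue, measured 10.3, 9.51 and 9.17 in experiments 1, 2 and 3 of normal r4 and 15.9, 12.3 and 10.9 in Hoxb1a-deficient r4. It was higher in the deficient tissue in all 3 experiments, and the groups did not overlap, as for 2.08% of all probes. Its log2 differences were 0.63, 0.38 and 0.25, and the log2 fold change of 0.42 ± 0.20 did not pass (SE, limma adjusted p = 0.879).

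robo3 is the receptor that lets axons cross the midline, and zebrafish mutants for it have misrouted Mauthner axons. It measured 9.69, 7.40 and 6.25 in normal r4 and 8.999, 5.67 and 4.11 in Hoxb1a-deficient r4. The deficient sample was the lower one in each experiment, by -0.11, -0.38 and -0.61 on the log2 scale, while the groups overlapped. The log2 fold change was -0.37 ± 0.17 (SE, limma adjusted p = 0.873).

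robo1, another Slit receptor, measured 128, 89.7 and 77.9 in normal r4 and 146, 108 and 80.5 in Hoxb1a-deficient r4. On the normal r4 array of experiment 1 it was 1 of 97 probes at the highest value of the array, so that its level there is a lower bound. On the Hoxb1a-deficient r4 array of that experiment it lay close to the highest value, 147. The log2 difference of 0.18 in experiment 1 thus compares values at or near the highest of their arrays. Over the 9 arrays robo1 lay between 48.2% and 100% of the highest value of its array. Its fitted log2 fold change of 0.17 ± 0.12, which takes the bound in normal r4 as a value, did not pass (limma adjusted p = 0.901). It was 0.16 without experiment 1.

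Among the semaphorins, sema4c, a transmembrane semaphorin that binds plexin B receptors in mammals, measured 3.82, 2.60 and 2.35 in normal r4 and 2.62, 2.46 and 2.26 in Hoxb1a-deficient r4. Most of its difference of -0.23 ± 0.17 (adjusted p = 0.917) lay in experiment 1, where it was -0.55, against -0.08 and -0.05 in experiments 2 and 3. sema4e, known in zebrafish to guide branchiomotor axons in the pharyngeal arches, read 2.80, 1.14 and 1.04 in normal r4 and 2.51, 0.908 and 0.934 in Hoxb1a-deficient r4. It was lower in the deficient sample each time, with a log2 fold change of -0.22 ± 0.11 (limma adjusted p = 0.890). sema3e was lower in the deficient sample of experiment 1 and higher in those of experiments 2 and 3, with values of 3.47, 1.95 and 1.89 against 3.25, 2.07 and 2.06.

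Across the 20 genes, 6 had the same sign in all 3 experiments (robo1, robo4, robo3, sema3h, sema4c and sema4e), beside 23.0% of all probes. For robo1 the sign in experiment 1 cannot be read, since its normal r4 value there is a lower bound. A difference of at least 1.5-fold the same way in every experiment was reached by 0 of the 20 genes and by 0.173% of probes. The groups did not overlap for robo4 and sema3h, and for 2.08% of probes, and sema3h lay at or below the median on 8 of the 9 arrays.

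**Figure D2:**
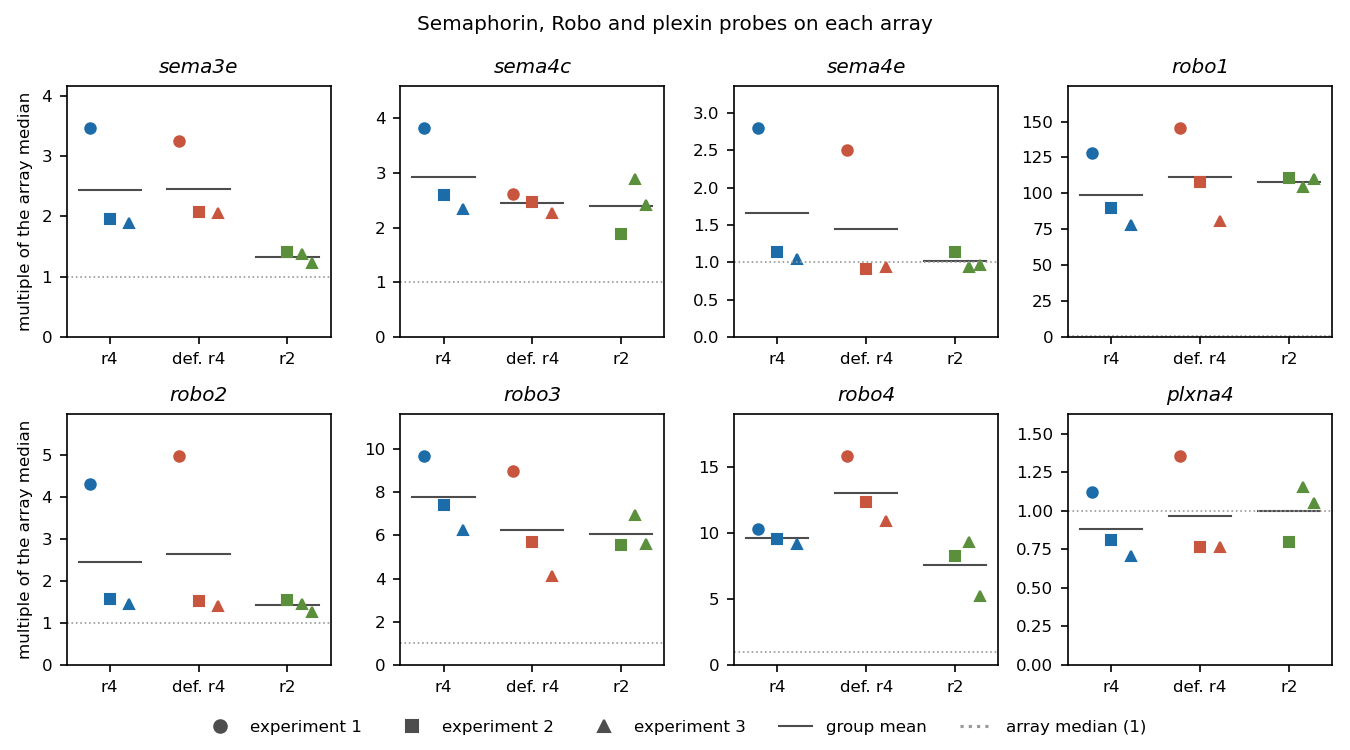
The vertical axes give the multiple of the array median on linear scales that start at 0, with 1 point per array for normal r4, Hoxb1a-deficient r4 (def. r4) and normal r2, and bars at the group means. The point's shape gives the experiment, and the r4 points of experiment 1 lie above those of experiments 2 and 3 for robo2, sema4e and sema3e, while sema3e is lower on all 3 r2 arrays (1.22 to 1.41) than on any r4 array (1.89 to 3.47).

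In normal r2 against normal r4 the gene with the lowest p was sema3e, a class 3 semaphorin that signals through plexin D1 and is known to guide blood vessels in mouse and zebrafish. It measured 1.41, 1.37 and 1.22 in r2 samples 2, 3a and 3b, beside the 3.47, 1.95 and 1.89 of normal r4. All r2 arrays lay below all r4 arrays. Within experiments 2 and 3 the log2 differences were -0.47 and -0.54. The log2 fold change of -0.55 ± 0.12 did not pass (SE, 1.46-fold lower in r2, limma adjusted p = 0.0720), and passed after quantile normalization (-0.60, adjusted p = 0.0411). Over the other alternatives its adjusted p ran up to 0.770, the value without the block.

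None of the 20 genes passed the test in this comparison, while 1.70% of all probes did. Without the block 0 genes and 0.579% of probes were called. An unadjusted p under 0.05 was reached by 3 genes, sema3e, robo1 and plxna4, and by 11.0% of probes. The log2 fold changes ran from -0.55 to 0.41, 8 above and 12 below 0, with a median of -0.02 beside 0.04 over all probes. All 20 unadjusted 95% intervals again lay within 1 on the log2 scale, and 16 did without the block. Of the 20, 10 had the same sign in experiments 2 and 3, beside 55.8% of probes. A difference of at least 1.5-fold the same way in both experiments was reached by 0 genes and 2.55% of probes. Of the 20, only for sema3e did the groups not overlap, beside 8.76% of probes.

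robo1 read 111, 104 and 110 in r2 samples 2, 3a and 3b, above the r4 values of the same experiments (89.7 and 77.9) but below that of experiment 1. Its log2 fold change was 0.41 ± 0.13 (limma adjusted p = 0.215) and fell to 0.19 after quantile normalization and to 0.17 without the block. The r2 values of samples 3a and 3b lay near the highest values of their arrays, 107 and 119. The highest values were 190 for r2 and 186 for normal r4 in experiment 2, and 112 for normal r4 in experiment 3. plxna4, a plexin that transmits class 3 semaphorin signals, read 0.800, 1.16 and 1.05 in r2 and 1.12, 0.810 and 0.707 in r4. It was higher in r2 by 0.64 on the log2 scale in experiment 3 and differed by -0.02 in experiment 2. Its log2 fold change of 0.41 ± 0.16 (limma adjusted p = 0.378) thus rested on 1 experiment.

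The other Robos were not separated between r2 and r4. robo4 read 8.24, 9.34 and 5.21 in r2, and the gap between samples 3a and 3b of the same experiment was larger than that between the tissues (-0.26 ± 0.22, adjusted p = 0.832). robo3 read 5.56, 6.95 and 5.61 in r2 (-0.09 ± 0.18, adjusted p = 0.973).

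The comparison of Hoxb1a-deficient r4 with normal r2 shares its arrays with the others and differs in both segment and treatment. sema3e was the 1 gene of the 20 that was called, and 2.21% of all probes were called (0.875% higher and 1.34% lower). It was higher in Hoxb1a-deficient r4 than in r2, with a fold change of 0.59 ± 0.12 on the log2 scale (SE, 1.505-fold, limma adjusted p = 0.0479). The differences were 0.56 and 0.67 in experiments 2 and 3, and the groups did not overlap, as for 10.5% of probes. The r2 values, 1.22 to 1.41, lay close to the array median. The call was lost without the block (0.85 ± 0.29, adjusted p = 0.654) and without any 1 of the 6 arrays compared (0.52 to 0.63, adjusted p from 0.0617 without Hoxb1a-deficient r4 replicate 2 to 0.277 without Hoxb1a-deficient r4 replicate 3).

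robo4 was higher in Hoxb1a-deficient r4 than in r2 by 0.68 ± 0.22 on the log2 scale (limma adjusted p = 0.173). The differences were 0.58 and 0.64 in experiments 2 and 3, and the groups did not overlap. The log2 fold changes of the 20 genes ran from -0.30, for plxna4, to 0.68, with a median of -0.07 beside -0.04 over all probes. The groups did not overlap for robo4 and sema3e, and for 10.5% of all probes. An unadjusted p under 0.05 was reached by the same 2 genes and by 15.2% of probes (2 genes and 4.74% without the block). The sign was the same in experiments 2 and 3 for 13 genes and 53.8% of probes, and a 1.5-fold difference in both was reached by 0 genes and 2.59% of probes. The unadjusted interval of robo4 reached 1.17, and the other 19 lay within 1 in either direction.

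**Figure D3:**
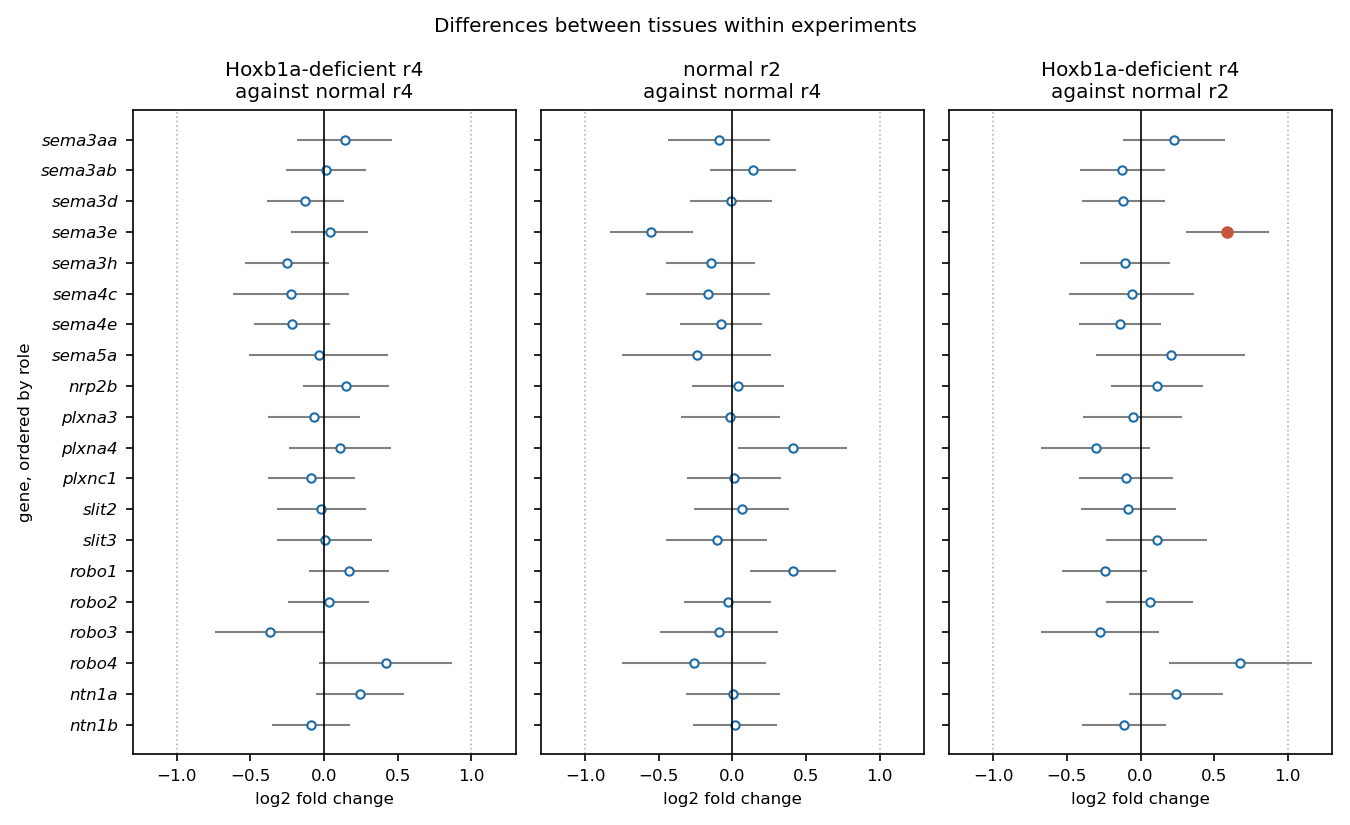
The horizontal axes give log2 fold changes with unadjusted 95% intervals from the blocked limma fit, for the 20 genes in the 3 comparisons, with dotted lines at a change of 1. Filled red marks a limma adjusted p under 0.05, reached by sema3e between Hoxb1a-deficient r4 and normal r2 (0.59), and in the first panel all 20 estimates lie between -0.37 and 0.42.

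None of the genes that lay at or below the median on any array passed the test in any comparison. The class 3 semaphorins sema3aa, sema3ab and sema3d lay between 0.428 and 0.902 on all arrays, plxna3, a plexin needed for motor axon exit in zebrafish, between 0.406 and 0.796, and plxnc1, a receptor of Sema7A, between 0.441 and 0.760. ntn1a and ntn1b encode netrins of the floor plate and ventral neural tube. ntn1a read 0.547 to 0.928 in r4, 0.689 to 1.06 in Hoxb1a-deficient r4 and 0.569 to 0.772 in r2, and ntn1b lay between 0.490 and 0.823 on all arrays. The midline repellents slit2 and slit3 stayed between 0.451 and 0.760. nrp2b, a neuropilin that binds class 3 semaphorins and VEGF, lay within 0.842 to 1.15, close to the median everywhere. sema5a, a transmembrane semaphorin with thrombospondin repeats, reached 1.31 in Hoxb1a-deficient r4 of experiment 3 and 0.619 to 0.875 elsewhere.

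Markers of neighbouring tissues were read in the same arrays. Among 12 otic vesicle markers measured, 7 were lower and 0 higher in r2 (6 called without the block), and their summed level was 13.0 to 14.2 in r2 and 52.8 to 151 in normal r4. Of 6 markers of rhombomeres 3, 5 and 6, 3 were lower in r2 (egr2b, hoxa3a and hoxb3a), with sums of 32.3 to 59.5 against 132 to 190. These sums were carried mostly by egr2b, at 24.7 to 52.3 in r2 and 112 to 152 in normal r4. On the normal r4 array of experiment 3 egr2b lay close to the highest value of the array, 112.04. Of 12 midbrain, isthmus and rhombomere 1 markers, 3 were higher in r2. The sum of the 12 was 128 to 155 in r2, 134 to 152 in normal r4 and 128 to 163 in Hoxb1a-deficient r4. Lower in r2 were also 2 of 9 skin and periderm markers, cldn3c (-3.38) and epcam (-3.07), the ganglion marker neurod1 (-2.63), 1 of 2, and the pharyngeal arch marker dlx5a (-1.79), 1 of 13. The sum of those 13 neural crest and pharyngeal arch markers was 24.1 to 31.1 in normal r4, 19.6 to 25.5 in Hoxb1a-deficient r4 and 23.9 to 36.5 in r2. Their median log2 fold change in r2 against normal r4 was -0.02, and dlx2a was higher in r2 without passing (0.65 ± 0.27, limma adjusted p = 0.413). Over all probes 0.937% were called lower and 0.764% higher in r2. Between Hoxb1a-deficient r4 and r2, where sema3e was called, 6 otic vesicle markers, 3 of rhombomeres 3, 5 and 6, 2 of skin and periderm, neurod1 and dlx5a were higher in the deficient tissue and 3 midbrain markers lower, beside 0.875% and 1.34% of all probes. Summed skin and periderm markers were 57.7 to 147 in normal r4, 78.7 to 154 in Hoxb1a-deficient r4 and 26.6 to 56.5 in r2. Their part in the sema3e difference was not tested. Beside robo4, the endothelial markers measured were dab2, tek and tie1, 3 of the 12 listed. Their sum was 4.79 to 9.07 in normal r4, 3.24 to 4.85 in Hoxb1a-deficient r4 and 3.34 to 4.32 in r2, carried mostly by dab2, and its part in the robo4 differences was not tested. tie1 lay below the median on all arrays and tek on 8 of 9.

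Other genes of the pathway were read from 2 lists, which were chosen with earlier results of these data known. Among 21 measured co-receptors, shared ligands and adhesion partners, 3 were higher and 0 lower in r2 than in r4 (0.764% and 0.937% of all probes). Between Hoxb1a-deficient and normal r4, 0 were called (0.0123% of all probes). In Hoxb1a-deficient r4 against r2, 1 was lower (1.34% of all probes). In the same order 6, 2 and 4 of the 21 had an unadjusted p under 0.05, beside 11.0%, 5.74% and 15.2% of all probes. The list's median log2 fold changes were 0.08, -0.02 and -0.10 in these comparisons, beside 0.04, -0.01 and -0.04 over all probes. The 3 called in r2 were the VEGF genes vegfab and vegfaa and the chemokine gene cxcl12b.

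vegfab encodes a vascular endothelial growth factor, a ligand of VEGF receptors that also binds neuropilins. It measured 3.39, 2.32 and 4.24 in normal r4, 2.00, 1.77 and 1.89 in Hoxb1a-deficient r4 and 4.56, 10.3 and 9.18 in r2. The 3 tissues did not overlap, with Hoxb1a-deficient r4 lowest and r2 highest. Of all probes, 2.08% did not overlap between Hoxb1a-deficient and normal r4. The shares were 8.76% between r2 and normal r4 and 10.5% between Hoxb1a-deficient r4 and r2. vegfab was lower in Hoxb1a-deficient r4 than in r2 (log2 fold change -1.92 ± 0.20, SE, limma adjusted p = 0.00154), a call kept in 14 of 15 alternatives and lost with log2(value + 16). It was higher in r2 than in normal r4 (1.15 ± 0.20, adjusted p = 0.0233), a call kept in 5 of 15 and lost without the block (adjusted p = 0.320). Between Hoxb1a-deficient and normal r4 it differed by -0.76, -0.39 and -1.17 in experiments 1, 2 and 3 and did not pass (-0.77 ± 0.19, adjusted p = 0.602).

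vegfaa, the other VEGF-A copy, read 0.756 to 0.872 in normal r4 and 1.27 to 1.59 in r2 (0.71 ± 0.14, limma adjusted p = 0.0464). That call was kept in 3 of 15 alternatives and lost without any 1 of the 6 arrays compared. cxcl12b, which guides migrating cells through Cxcr4, was higher in r2 by 1.41 ± 0.23 (adjusted p = 0.0182), a call kept in 7 of 15 alternatives. Its values were 2.11, 2.87 and 2.07 in normal r4, 6.103, 6.79 and 4.34 in Hoxb1a-deficient r4, and 4.92, 6.74 and 6.79 in r2. Both r2 and Hoxb1a-deficient r4 thus lay above normal r4 without overlap, beside 8.76% and 2.08% of all probes without overlap in either direction. Between Hoxb1a-deficient and normal r4 cxcl12b differed by 1.53, 1.25 and 1.06 on the log2 scale in experiments 1, 2 and 3. That fold change of 1.28 ± 0.21 did not pass (limma adjusted p = 0.231), passed with a random block (0.0487) and with trended and robust eBayes (0.0452), and had adjusted p of 0.101 to 1.000 under the other 13 alternatives. In r2 against normal r4 the calls of vegfab and cxcl12b were both lost without normal r4 replicate 1 (limma adjusted p = 0.117 and 0.103). With the block, that fit is the same as leaving out experiment 1. Both were also lost without normal r4 replicate 3 (0.145 and 0.195), r2 replicate 3a (0.0751 and 0.0574) and r2 replicate 3b (0.0906 and 0.0711). That of vegfab was lost without normal r4 replicate 2 as well (0.0971). Averaging samples 3a and 3b lost the calls of vegfab, vegfaa and cxcl12b in r2 against normal r4 (limma adjusted p = 0.0810, 0.117 and 0.0628).

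Among 27 measured intracellular effectors, which link these receptors to the cytoskeleton, 0 were called in any comparison. Over all probes 0.0123% were called for deficient against normal r4, 1.70% for r2 against normal r4 and 2.21% for deficient r4 against r2. Medians were -0.05, -0.03 and -0.02 in that order, beside -0.01, 0.04 and -0.04 over all probes. An unadjusted p under 0.05 was reached by 5, 4 and 8 of the 27, beside 5.74%, 11.0% and 15.2% of all probes. The lowest r2 difference was that of nck2a, an adaptor that couples receptors to actin regulators, at 4.35, 5.65 and 5.94 in r2 and 13.8, 7.56 and 9.26 in r4 (-0.78 ± 0.17, limma adjusted p = 0.0652). The groups did not overlap, as for 8.76% of all probes. The highest was that of the small GTPase gene rap1ab, 0.47 ± 0.15 (adjusted p = 0.247). In Hoxb1a-deficient against normal r4 the largest were rap1aa, another small GTPase gene (-0.48 ± 0.13, adjusted p = 0.730), and mical3b, of an actin-oxidising enzyme family that acts below plexins (0.45 ± 0.22, adjusted p = 0.879). Against r2, rap1aa and rap1ab were at -0.64 ± 0.14 and -0.63 ± 0.15 (adjusted p = 0.0575 and 0.0828).

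**Figure D4:**
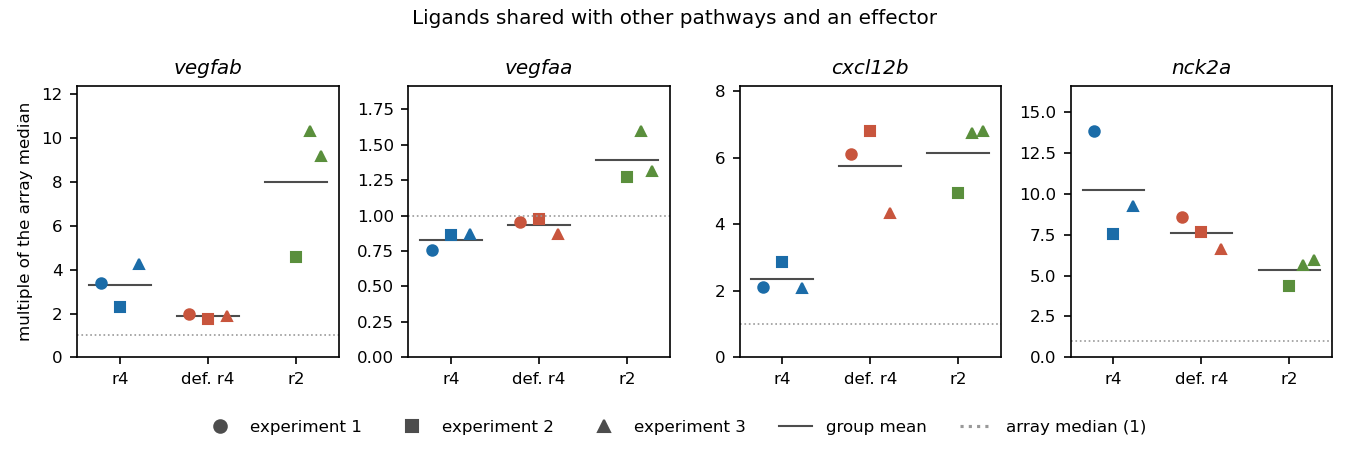
The vertical axes give the multiple of the array median on linear scales from 0 for vegfab, vegfaa, cxcl12b and nck2a, with 1 point per array, shapes for experiments and bars for group means. For vegfab the 3 Hoxb1a-deficient r4 arrays (1.77 to 2.00) lie below all normal r4 arrays, and the r2 arrays (4.56 to 10.3) above them.

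Neuron markers were read beside the receptors. Of 9 postmitotic neuron genes, 0 were called between Hoxb1a-deficient and normal r4, beside 0.0123% of all probes. Their median log2 fold change was -0.31 beside -0.01 over all probes. An unadjusted p under 0.05 was reached there by 4 of the 9, beside 5.74% of all probes. Between Hoxb1a-deficient r4 and r2, stmn2a, gng3 and snap25b were lower (-1.33 ± 0.16, -0.86 ± 0.17 and -1.80 ± 0.21; limma adjusted p = 0.00339, 0.0380 and 0.00302). Between r2 and r4, stmn2a was higher (1.02 ± 0.16, adjusted p = 0.0144) and nefma lower (-1.08 ± 0.21, adjusted p = 0.0362). None of these 5 calls held without the block. Over all probes, 0.875% were called higher and 1.34% lower in Hoxb1a-deficient r4 than in r2. In r2 against normal r4 these shares were 0.764% and 0.937%. The summed level of the 9 genes was 159 to 234 in normal r4, 148 to 234 in Hoxb1a-deficient r4 and 171 to 227 in r2. Among the 5 genes of cranial motor neurons measured, slc18a3a, which loads acetylcholine into vesicles, was lower in r2 (-2.24 ± 0.19, adjusted p = 0.000405) and higher in Hoxb1a-deficient r4 than in r2 (1.80 ± 0.19, adjusted p = 0.00154). Both calls held without the block, and 0 other genes of that list were called. The list's median log2 fold changes in these 2 comparisons were 0.10 and -0.02, beside 0.04 and -0.04 over all probes. isl1a differed in the opposite directions without passing (0.46 ± 0.21 and -0.27 ± 0.21, limma adjusted p = 0.487 and 0.611). Of 13 neural progenitor and radial glia genes, fabp7a was lower in r2 than in normal r4 (-0.87 ± 0.17, limma adjusted p = 0.0421). gfap was lower in Hoxb1a-deficient r4 than in r2 (-0.79 ± 0.16, adjusted p = 0.0441). Neither call held without the block. The median log2 fold change of the 13 in r2 against normal r4 was -0.08, beside 0.04 over all probes. In Hoxb1a-deficient r4 against r2 it was -0.05 beside -0.04, and her6 was higher there without passing (0.55 ± 0.22, limma adjusted p = 0.266). The summed level of the 13 was 439 to 567 in normal r4, 400 to 500 in Hoxb1a-deficient r4 and 437 to 445 in r2. Between Hoxb1a-deficient and normal r4, 0 of the 13 were called and 4 had an unadjusted p under 0.05, beside 0.0123% and 5.74% of all probes. There fabp7a (-0.98 ± 0.16, adjusted p = 0.211) and slc1a2b (-0.88 ± 0.14, 0.151) differed most.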

How the data were processed

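The authors deposited 1 table of 16399 rows, with 1 column per array. The deposited values are linear, and were read as made by the authors as the ratio of an intensity to one number per array, because column medians are about 1 and all values exceed 0. How background and normalization were handled is not given in the sources used. RNA was amplified and labelled with biotin, per the labels. Symbols came from the platform annotation, updated through Entrez identifiers, and gave 5907 probes with 1 symbol. The 172 spots of 1 repeated actb2 accession were left out.

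limma 3.58.1 (R 4.3.3; lmFit, default eBayes, two-sided) was run on log2 values without a pseudocount, over all 9 arrays, with the experiment as a fixed replicate block, and was tested on simulated data. The design text of the series makes each replicate number an experiment. Deviations of same-numbered r4 arrays from group means correlated with 0.892, 0.730 and 0.683, and those of differently numbered ones with -0.781 to 0.504. The log2 values of samples 3a and 3b, not taken as deviations, correlated over all probes with 0.991. That value cannot be set beside the correlations of deviations. Whether samples came from separate clutches is not given. With the block, p-values measure the spread left between these arrays once tissue and experiment are fitted, moderated over all probes. Samples 3a and 3b of experiment 3 count as separate arrays in that spread. The number of arrays limits the precision. Full values are given for genes called, those at least 1.5-fold different the same way in every experiment, and the 2 with the largest fold per comparison and direction above the median; sema4e and robo2 were added, other genes are given by range, and markers were read from lists. The members, lists and the blocked fit were chosen with earlier results of these data known. Alternatives were no block, a random block, pseudocounts of 1 and 16, quantile normalization, a filter on dim probes, and trended and robust eBayes. Others were averaging samples 3a and 3b, leaving out experiment 1, and leaving out each array. With the block, leaving out either array of experiment 1 is the same fit as leaving out experiment 1, although each is counted as an alternative.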

Additional observations from a re-analysis of the deposited data

How the results depend on the processing

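Values below are under 1 changed setting each. In Hoxb1a-deficient against normal r4, 2 probes were called with the fixed replicate block. The count was 0 with no block, 9 with a random block, 0 with log2(value + 1), 0 with log2(value + 16), 5 after quantile normalization, 7 with the dim-probe filter, 11 with trended and robust eBayes, 0 in experiments 2 and 3 alone, and 0 to 8 without 1 array. In r2 against r4 it was 276, and 94 with no block, 65 with log2(value + 1), 4 with log2(value + 16), 443 after quantile normalization, 152 with samples 3a and 3b averaged, 118 in experiments 2 and 3 alone, and 98 (without normal r4 replicate 3) to 407 without 1 array. In Hoxb1a-deficient r4 against r2 it was 359, and 90, 94, 1, 541, 178 and 147 in the same order, and 147 (without Hoxb1a-deficient r4 replicate 1 or 3) to 871 (without Hoxb1a-deficient r4 replicate 2) without 1 array.

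Of the 20 axon guidance genes, quantile normalization called 1 in r2 against r4, where 0 were called otherwise. In Hoxb1a-deficient r4 against r2 the 1 call, sema3e, became 0 with no block, both pseudocounts, the dim-probe filter, trended and robust eBayes, averaged r2 samples, experiments 2 and 3 alone, and without any 1 array (0 to 0), and remained with a random block and after quantile normalization. The median log2 fold change of the 20 genes in r2 against r4 was -0.02. It was -0.00069 with log2(value + 16), -0.055 in experiments 2 and 3 alone, and -0.074 to -0.00018 without 1 array. With the filter the median was -0.077, over only the genes that the filter kept, whose own fold changes it did not alter. In Hoxb1a-deficient r4 against r2 the median of the 20 genes was -0.07. It was 0.0016 with no block, -0.035 and -0.0035 with pseudocounts of 1 and 16, and -0.070 to -0.038 without 1 array. None of these settings reversed a call. Taking gene means could change nothing, since each gene had 1 probe. Apart from the change of gene set under the filter, the cause of these shifts was not tested. Signal over background is unknown, which limits what can be read for the 8 genes below the median on every array.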
